A study of Homo sapiens with 12 samples.

Results

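A list of 37 genes that p53 is known to switch on, CDKN1A and GDF15 among them, was followed across 4 lines of 786-O, a human clear cell renal cell carcinoma line, with the question of which of them were lower in the line with shRNAs against YAP and TAZ alone. The genes were taken by symbol: each row of the count table whose Ensembl gene ID maps to a listed symbol is a member. All 37 were found among the 62702 genes of the table. Of these, 36 passed the filter on low counts that left 12301 genes to be tested, and ACER2 did not.

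RNA was measured by BRB-seq, in which the 3′ end of each polyadenylated transcript is barcoded and sequenced, in 12 libraries, 3 of each line. The lines were the parental cells, and cells with shRNAs against HIF2A (labelled shHIF2a; the gene is EPAS1), against the AP-1 subunits cJUN, JUNB and JUND (shJUNs), or against YAP and TAZ (shYAP/TAZ; their genes are YAP1 and WWTR1). All of them, the parental line included, were kept in doxycycline for 72 hours, which induces the shRNAs. The shRNA lines also went through antibiotic selection, in which the number of silenced genes set the choice among puromycin, blasticidin and hygromycin. The labels call the replicates technical, so the p-values below measure the spread between these libraries only, and a line with a control shRNA was not analysed here. The knockdown, the selection and the history of a line cannot be told apart. By its title, the series asked whether HIF2A acts together with YAP/TAZ and AP-1 in this cancer's transcription.

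p53 is a transcription factor that is held at a low level by the ubiquitin ligase MDM2 and accumulates after DNA damage and other stress. It binds paired elements in the DNA of its target genes, whose products arrest the cell cycle, repair DNA, limit oxidative damage, trigger cell death and, through MDM2 and PPM1D, shut p53 off again. Many of these genes have other inducers too: GDF15 and SESN2 are also induced by ATF4 and CHOP, the factors of the integrated stress response. YAP and TAZ are coactivators that act through the TEAD factors, HIF2A is the hypoxia factor that drives clear cell renal carcinoma once VHL is lost, and the JUN proteins are subunits of AP-1.

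The libraries held 2272459 to 4469956 counts. Levels are given as CPM, counts divided by the library size as scaled by TMM, and 3 counts in 1 library equal 0.67 to 1.36 CPM. Mitochondrial transcripts made up 6.33% to 9.37% of the counts. In the check of the labels, YAP1 was at 66.7, 58.2 and 71.2 CPM in parental cells and at 21.8, 10.2 and 10.4 in shYAP/TAZ, and WWTR1 at 239, 325 and 369 against 146, 143 and 169. EPAS1 was at 267, 194 and 148 CPM in parental cells, 11.9, 17.5 and 18.6 in shHIF2a cells, 36.6, 38.5 and 36.2 in shJUNs cells and 172, 109.8 and 58.6 in shYAP/TAZ cells. Against parental cells, JUN (log2 change -0.84 ± 0.18, adjusted p = 0.00215), JUNB (-0.76 ± 0.24, adjusted p = 0.034) and JUND (-3.20 ± 0.17, adjusted p = 1.41e-11) were lower in shJUNs, though the JUNB libraries overlapped, and JUN (-0.93 ± 0.18, adjusted p = 0.00103) and JUND (-0.69 ± 0.15, adjusted p = 0.00312) were also lower in shHIF2a. Of 9 markers of renal carcinoma lines all were tested, and they summed to between 10850 and 17860 CPM in a library, nearly all of it VIM. Of 12 markers of blood, endothelial, liver, neural and stromal cells, CD3E, CDH5, LYZ and PECAM1 were among those with no count, and the 12 summed to 7.68 to 9.56 CPM in parental cells, 23.5 to 32.8 in shHIF2a, 19.2 to 27.5 in shJUNs and 37.6 to 53.1 in shYAP/TAZ. Most of that was COL1A1, at 5.24, 6.75 and 6.78 CPM in parental cells and 16.8, 21.7 and 24.3 in shYAP/TAZ, and the neural gene SNAP25, at 0, 1.12 and 0 CPM in parental cells and 36.3, 22.3 and 11.8 in shYAP/TAZ. RBFOX3, another neural gene of the list, was called higher in shJUNs alone, with 100 counts there and 2 in shHIF2a. The part of these markers in the results below was not tested. RNA from bulk cells does not tell fewer cells with a transcript from less of it per cell.

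Most of the listed p53 target genes were lower in shYAP/TAZ than in parental cells. The list was chosen with earlier results of these data known, so its shares describe this list and do not test p53 targets at large. In shYAP/TAZ 25 of the 36 tested were called lower at an adjusted p under 0.05 and 2 higher, where 12.3% of all genes tested were lower and 13% higher. Their median log2 change was -1.33, against 0.02 over all genes. In shHIF2a 8 were lower and 4 higher (8.8% and 9.84% of all genes), with a median of -0.09, and in shJUNs 5 were lower and 3 higher (8.93% and 10.3% of all genes), with a median of -0.10. The 3 comparisons share the parental libraries. The shHIF2a counts rested on single libraries: without parental replicate 1 they were 2 lower and 2 higher, without shHIF2a replicates 1, 2 or 3 there were 5, 4 or 5 lower, and without parental replicate 2 or shYAP/TAZ replicate 3 there were 2 or 7 higher. In shJUNs 3 were lower without parental replicate 1, shJUNs replicate 2 or shJUNs replicate 3. Set against the other knockdown lines, shYAP/TAZ was lower for 20 genes than shHIF2a (8.72% of all genes) and for 20 than shJUNs (8.27%), with medians of -1.12 and -1.14. No member was called higher in shYAP/TAZ than in shHIF2a by edgeR's quasi-likelihood test (9.71% of all genes were), none at an unadjusted p under 0.05, and none by DESeq2 or limma-voom. None was called higher in shYAP/TAZ than in shJUNs by edgeR (7.87% of all genes were), 2 were at an unadjusted p under 0.05, and DESeq2 and limma-voom each called 1, TP53I3, as edgeR did without parental replicate 1. Between shJUNs and shHIF2a 1 gene was lower, RPS27L, and 1 higher, SPATA18 (3.17% and 4.36% of all genes), and each call was lost without any 1 of the 4 libraries named with its gene below. Among the 4 groups 30 of the 36 differed, where 38.7% of all genes did.

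A gene was counted as lower in a line alone when it was called lower there than in each of the other 3 groups. That held in shYAP/TAZ for 17 members, 47.2% of those tested, where it held for 3.06% of all genes. Here too the share describes a list chosen with earlier results known. The 17 were CDKN1A, BTG2, PLK2, GDF15, MDM2, BAX, TNFRSF10B, AEN, TRIAP1, PHLDA3, CYFIP2, RRM2B, FDXR, DRAM1, ZMAT3, RPS27L and NINJ1. Of these, CDKN1A, GDF15 and FDXR were also called lower in shHIF2a than in parental cells, and CDKN1A and GDF15 in shJUNs too. The same count was 1 in parental cells, SERTAD1 (3.18% of all genes), and 0 in shHIF2a (0.967%) and shJUNs (0.634%), where edgeR at an unadjusted p under 0.05, DESeq2 and limma-voom each found 0 as well. No member was higher in shYAP/TAZ alone by any of these (2.77% of all genes). None was higher in shHIF2a alone by edgeR (0.488% of all genes), 1 was at an unadjusted p under 0.05, and DESeq2 and limma-voom each found 1. For 16 of the 17, all but BTG2, the 3 shYAP/TAZ libraries lay below all 9 others, as did those of 627 of the 12301 genes tested (5.1%). shYAP/TAZ had the lowest mean of the 4 groups for 29 of the 36 members and for 26.1% of all genes. Over the 20 alternatives run for each of the 3 comparisons, 14 of the 17 stayed called in every one, and BTG2, MDM2 and RRM2B did not.

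**Figure D1:**
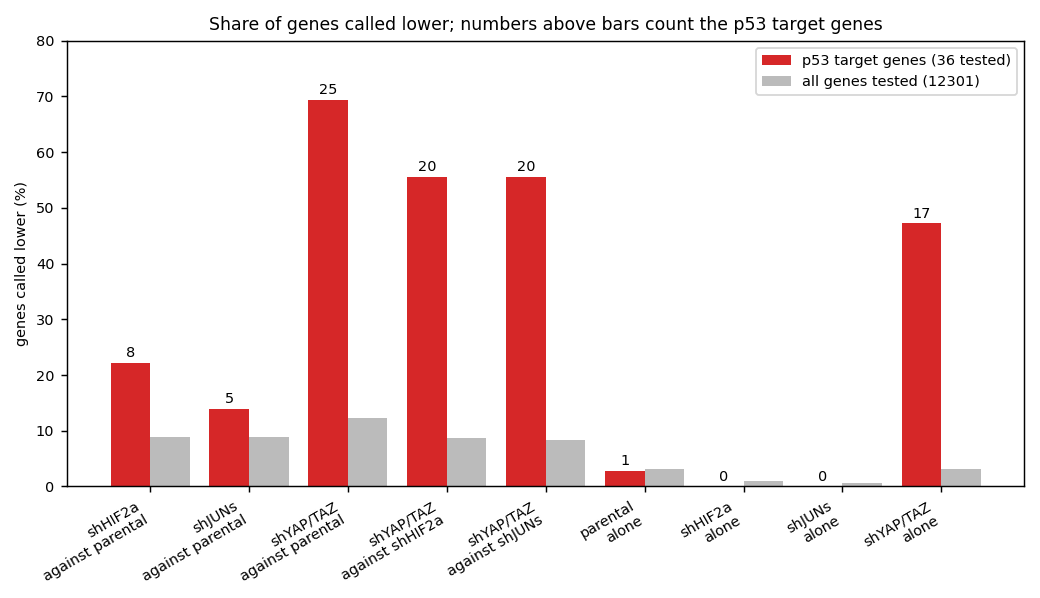
Share of genes called lower (y axis, percent of genes tested) in each comparison and in 1 group alone, for the 36 p53 target genes tested (red bars, with their number above) and for all 12301 genes (grey bars). The red bars of shYAP/TAZ against parental, shHIF2a and shJUNs stand for 25, 20 and 20 genes, and the bar of shYAP/TAZ alone for 17.

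The promoters of these genes were read from RefSeq (GRCh38.p14), which gave windows of 250 bases before to 50 after a start for 30 of the 37 members. Some of these genes have several starts, each with its own window. Shown first are the 250 bases before the start of CDKN1A and GDF15, the members with the 2 largest falls in shYAP/TAZ against parental cells. Then come those of MDM2 and AEN, which hold a match to the p53 site, with the match in capitals. In GDF15 the capitals mark GGAATG, the reverse complement of the TEAD motif CATTCC. All are on the plus strand, 5′ to 3′, CDKN1A at chr6:36678464-36678713, GDF15 at chr19:18385908-18386157, MDM2 at chr12:68808767-68809016 and AEN at chr15:88621090-88621339.
CDKN1A: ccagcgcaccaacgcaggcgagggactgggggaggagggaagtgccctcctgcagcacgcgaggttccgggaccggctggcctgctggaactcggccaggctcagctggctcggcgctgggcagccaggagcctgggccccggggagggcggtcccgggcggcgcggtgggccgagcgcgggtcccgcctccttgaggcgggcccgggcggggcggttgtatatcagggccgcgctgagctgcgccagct
GDF15: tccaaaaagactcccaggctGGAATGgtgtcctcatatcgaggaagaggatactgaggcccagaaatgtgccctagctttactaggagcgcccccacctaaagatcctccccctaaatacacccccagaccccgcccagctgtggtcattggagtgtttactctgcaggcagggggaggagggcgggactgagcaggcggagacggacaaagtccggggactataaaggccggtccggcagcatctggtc
MDM2: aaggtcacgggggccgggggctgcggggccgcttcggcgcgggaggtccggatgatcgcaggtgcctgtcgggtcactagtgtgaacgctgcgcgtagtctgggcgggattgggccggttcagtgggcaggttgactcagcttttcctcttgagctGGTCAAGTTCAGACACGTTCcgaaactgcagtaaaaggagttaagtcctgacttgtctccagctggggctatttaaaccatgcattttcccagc
AEN: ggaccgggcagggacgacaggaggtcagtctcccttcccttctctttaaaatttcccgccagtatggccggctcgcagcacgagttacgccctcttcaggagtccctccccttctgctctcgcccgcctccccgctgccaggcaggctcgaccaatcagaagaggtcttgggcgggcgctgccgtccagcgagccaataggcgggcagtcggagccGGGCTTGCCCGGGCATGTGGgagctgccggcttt

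The p53 site was searched by name on both strands, as a pair of elements of 10 bases with at most 1 base between them, at most 2 mismatches in all and the core letters of each element kept. A match was found in at least 1 window of 4 of the 30 members, MDM2, AEN, DDB2 and FAS, and of 0.674% of the 27305 genes with a window. Some other windows of MDM2, DDB2 and FAS held none, among them those of MDM2 from chr12:68807922 and chr12:68807927. The match starts 94 bases before the start in the MDM2 window shown, 101 before in another, and 34 before in AEN. For all 6 genes shown, the RefSeq start lies within the span the count table gives the gene, so longer transcripts can begin before it. DDB2 has 2 overlapping matches, which start 5 bases before and 5 after its start, and FAS has 1, 122 before; both are printed with their matches in capitals because FAS, unlike the other 3, was called in no comparison (DDB2 at chr11:47214959-47214999, FAS at chr10:88991299-88991338, plus strand).
DDB2: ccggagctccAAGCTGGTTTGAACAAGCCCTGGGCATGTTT
FAS: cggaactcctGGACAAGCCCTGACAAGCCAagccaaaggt
CDKN1A and GDF15 hold no such match in these windows, which says only that the letters are not there. Of the 17 genes lower in shYAP/TAZ alone, 14 had a window, and 2 of these held a p53 match and 1, GDF15, the TEAD motif. CATTCC was in 6 of the 30 members (20%) and 16.7% of all genes, the AP-1 motif TGANTCA in 4 (13.3%) and 9.37%, the HIF core ACGTG in 9 (30%) and 24.9%, and the ATF/CREB motif TGACG in 9 (30%) and 28.4%, each on both strands. The last 2 motifs can overlap each other. A match is a description of the window and not a bound site.

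CDKN1A (ENSG00000124762, chr6:36676460-36687337, plus strand) encodes p21, the inhibitor of cyclin-dependent kinases through which p53 arrests the cell cycle. It was at 416, 259.8 and 206 CPM in parental cells, 187, 184 and 139 in shHIF2a cells, 156, 169 and 154 in shJUNs cells and 26.8, 33.1 and 33.7 in shYAP/TAZ cells. The shYAP/TAZ libraries lay far below the others, and those of shHIF2a and shJUNs lay below all parental libraries and overlapped each other. The log2 change in shYAP/TAZ was -3.22 ± 0.22, adjusted p = 5.58e-10 against parental cells (SE, 3 libraries a group; 9.34-fold lower), -2.44 ± 0.22, adjusted p = 5.15e-08 against shHIF2a and -2.34 ± 0.22, adjusted p = 9.86e-08 against shJUNs. Against parental cells it was -0.79 ± 0.20, adjusted p = 0.00762 in shHIF2a and -0.88 ± 0.20, adjusted p = 0.00299 in shJUNs. The shHIF2a call was lost without parental replicate 1, the highest library (adjusted p = 0.0783, range over 20 alternatives 0.000128 to 0.0783). The antisense RNA gene DINOL overlaps CDKN1A, and whether counting used the strand of the reads is not known from the labels.

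GDF15 (ENSG00000130513, chr19:18374731-18389176, plus strand) encodes a secreted hormone of the TGF-beta family that is released under stress. It was at 422, 280.0 and 188 CPM in parental cells, 43.5, 41.5 and 56.4 in shHIF2a cells, 52.1, 42.7 and 70.2 in shJUNs cells and 8.17, 8.28 and 7.95 in shYAP/TAZ cells. Parental cells were highest in all 3 libraries, shHIF2a and shJUNs lay between and overlapped, and shYAP/TAZ was lowest with its 3 libraries close together. Against parental cells the log2 change was -5.18 ± 0.30, adjusted p = 2.86e-11 in shYAP/TAZ, -2.65 ± 0.25, adjusted p = 1.8e-07 in shHIF2a and -2.43 ± 0.24, adjusted p = 2.8e-07 in shJUNs. Within the knockdown lines shYAP/TAZ was lower than shHIF2a by a further 5.77-fold (adjusted p = 2.01e-06) and than shJUNs by 6.76-fold (adjusted p = 7.1e-07). All 5 calls held in each alternative. GDF15 is thus among the 17 genes lowest in shYAP/TAZ and also among the 5 highest in parental cells alone, as CDKN1A is. The gene of the microRNA MIR3189 lies within GDF15 on the same strand.

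**Figure D2:**
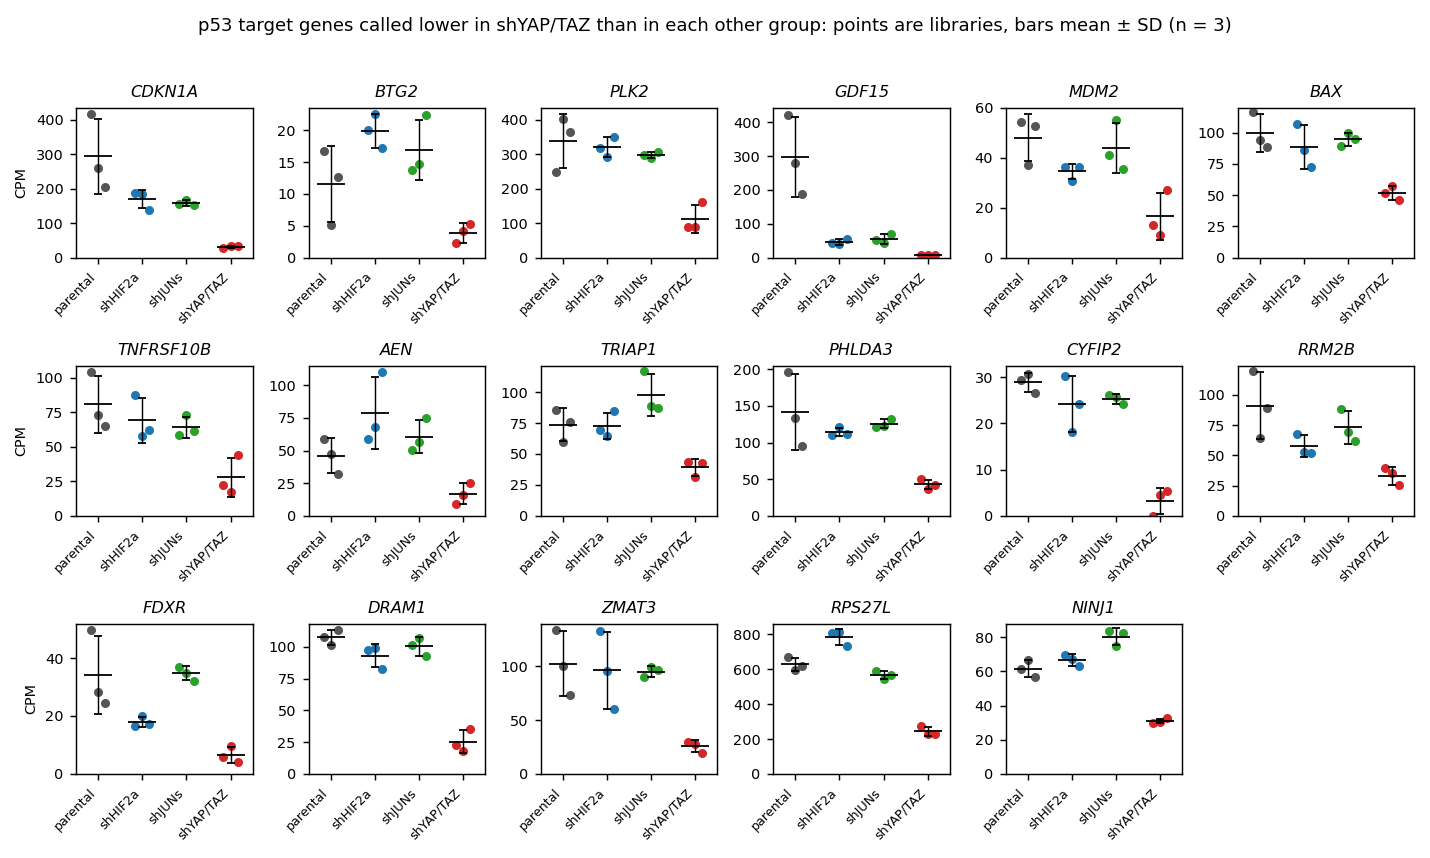
Level (y axis, CPM, linear from 0) of the 17 p53 target genes called lower in shYAP/TAZ than in each other group; points are the 3 libraries of each group and bars their mean ± SD. For 16 of them the red shYAP/TAZ points lie below every other point, and for BTG2 1 parental library reaches them.

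The groups of members by function below are small and were not tested as groups. Of the 7 members tied to the cell cycle, 4 were lower and 1 higher in shYAP/TAZ than in parental cells (12.3% and 13% of all genes). In shYAP/TAZ alone 3 were lower (3.06% of all genes). Besides CDKN1A these were PLK2 and BTG2. PLK2 (ENSG00000145632, chr5:58453982-58460139, minus strand), a polo-like kinase, was at 249.9, 403 and 364 CPM in parental cells, 319, 292 and 351 in shHIF2a cells, 297, 290.3 and 306 in shJUNs cells and 89.4, 88.5 and 161 in shYAP/TAZ cells. The shYAP/TAZ libraries lay below all others, which overlapped. The log2 change was -1.58 ± 0.20, adjusted p = 6.62e-06 against parental, -1.50 ± 0.20, adjusted p = 1.87e-05 against shHIF2a and -1.39 ± 0.20, adjusted p = 4.93e-05 against shJUNs. BTG2 (ENSG00000159388, chr1:203305491-203309602, plus strand), an antiproliferative protein that promotes mRNA deadenylation, was at 16.8, 5.06 and 12.7 CPM in parental cells, 20, 22.5 and 17.2 in shHIF2a cells, 13.8, 14.7 and 22.3 in shJUNs cells and 2.27, 4.14 and 5.3 in shYAP/TAZ cells. The second parental library fell within the range of shYAP/TAZ, while shHIF2a and shJUNs lay wholly above it. BTG2 was lower in shYAP/TAZ than in shHIF2a (-2.29 ± 0.45, adjusted p = 0.000911) and shJUNs (-2.06 ± 0.45, adjusted p = 0.00254), and than in parental cells (-1.49 ± 0.45, adjusted p = 0.0184). That last call was lost with limma-voom (adjusted p = 0.12), in a fit of the 2 groups only, and without parental replicates 1 or 3 or shYAP/TAZ replicates 1 or 2 (range over 20 alternatives 0.00432 to 0.12).

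GADD45A (ENSG00000116717, chr1:67685201-67688334, plus strand), which links damage to cell cycle arrest and repair, was at 217, 179.7 and 189 CPM in parental cells, 103, 113 and 187 in shHIF2a cells, 95.4, 119 and 126 in shJUNs cells and 39.5, 57.9 and 131 in shYAP/TAZ cells. The third shYAP/TAZ library lay above all of shJUNs and within the range of shHIF2a, and the other 2 lay below every library of the other lines. It was called lower in shYAP/TAZ against parental cells (-1.34 ± 0.34, adjusted p = 0.01), a call lost without parental replicate 1 (adjusted p = 0.0607, range 1.32e-06 to 0.0607), and not against shHIF2a (-0.80 ± 0.34, adjusted p = 0.124) or shJUNs (-0.55 ± 0.34, adjusted p = 0.307). Without shYAP/TAZ replicate 3, both were called. PLK3 (ENSG00000173846, chr1:44800377-44805990, plus strand), a second polo-like kinase, was at 2.44, 2.25 and 3.67 CPM in parental cells, 7.25, 5.3 and 13 in shHIF2a cells, 8.65, 6.14 and 6.48 in shJUNs cells and 3.63, 2.87 and 4.1 in shYAP/TAZ cells. All shHIF2a and shJUNs libraries lay above those of the other 2 lines. It was called higher in shHIF2a than in parental cells (1.59 ± 0.56, adjusted p = 0.0487), a call that most alternatives ended: it was lost without parental replicates 1, 2 or 3, shHIF2a replicates 1 or 3, shJUNs replicates 1, 2 or 3 or shYAP/TAZ replicate 2, with limma-voom (adjusted p = 0.0841), with DESeq2's size factors, with no filter, with a term for the replicate number and in a fit of the 2 groups only (range 0.026 to 0.23).

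SERTAD1 (ENSG00000197019, chr19:40421589-40425992, minus strand), a cofactor of CDK4 and E2F, moved the other way. It was at 4.54, 1.12 and 4.24 CPM in parental cells, 16.5, 17.8 and 22.1 in shHIF2a cells, 21.5, 16 and 20.6 in shJUNs cells and 3.18, 20.1 and 18.8 in shYAP/TAZ cells. Parental cells and the first shYAP/TAZ library were low, and the other 8 libraries higher. It was higher than in parental cells in shHIF2a (2.51 ± 0.53, adjusted p = 0.00198), shJUNs (2.56 ± 0.53, adjusted p = 0.00142) and shYAP/TAZ (2.13 ± 0.53, adjusted p = 0.00493), and was the 1 member lower in parental cells alone. CCNG1, which encodes cyclin G1, a partner of the phosphatase that acts on MDM2, ranged from 215 to 523 CPM over the 12 libraries and was called in none of the 6 comparisons between groups. Its shYAP/TAZ libraries were at 523, 423 and 251 CPM. CCNG1 was called higher in shYAP/TAZ than in parental cells and than in shJUNs without the third of them (adjusted p = 0.00186 and 0.00295) and with no filter on low counts (adjusted p = 0.00788 and 0.0167), and without parental replicate 1 against parental cells (adjusted p = 0.0269). It was called lower in shJUNs than in shHIF2a in a fit of the 2 groups only (adjusted p = 0.0127).

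MDM2 (ENSG00000135679, chr12:68808177-68845544, plus strand) was at 54.4, 37.1 and 52.6 CPM in parental cells, 36.2, 30.9 and 36.4 in shHIF2a cells, 41.3, 55 and 35.5 in shJUNs cells and 13.2, 9.23 and 27.2 in shYAP/TAZ cells. All shYAP/TAZ libraries were lowest, and the other 3 lines overlapped in part. The log2 change in shYAP/TAZ was -1.50 ± 0.31, adjusted p = 0.00104 against parental, -1.37 ± 0.31, adjusted p = 0.00356 against shJUNs and -1.02 ± 0.31, adjusted p = 0.0245 against shHIF2a. The call against shHIF2a was lost without shHIF2a replicates 1 or 3 or shYAP/TAZ replicates 1 or 2 and in a fit of the 2 groups only (range over 20 alternatives 0.000563 to 0.141). The carboxypeptidase gene CPM and 3 other genes overlap MDM2, so its counts are uncertain. PPM1D (ENSG00000170836, chr17:60600193-60666280, plus strand), the phosphatase WIP1, which turns off p53 and its kinases, was at 14.3, 11.8 and 10.5 CPM in parental cells, 22.9, 26.5 and 18.9 in shHIF2a cells, 27.5, 20.3 and 19.7 in shJUNs cells and 12.3, 13.1 and 6.02 in shYAP/TAZ cells. Parental and shYAP/TAZ libraries overlapped at the lower level, and shHIF2a and shJUNs libraries lay above them. shYAP/TAZ was lower than shHIF2a (-1.15 ± 0.34, adjusted p = 0.0214) and shJUNs (-1.13 ± 0.34, adjusted p = 0.025) but was not called against parental cells (-0.24 ± 0.35, adjusted p = 0.666). The call against shHIF2a was lost without shHIF2a replicates 1 or 2 or shYAP/TAZ replicate 3 and in a fit of the 2 groups only (range 0.00942 to 0.0993), and that against shJUNs without shJUNs replicate 1 or shYAP/TAZ replicate 3 (range 0.0105 to 0.123). PPM1D was not called higher than in parental cells in shHIF2a or shJUNs, but DESeq2 called both (adjusted p = 0.0457 and 0.0461), among other settings.

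Among the 12 members tied to cell death, 8 were lower and 1 higher in shYAP/TAZ than in parental cells (12.3% and 13% of all genes). In shYAP/TAZ alone 6 were lower (3.06% of all genes). BAX (ENSG00000087088, chr19:48954815-48961798, plus strand), which opens the outer mitochondrial membrane, was at 117, 94.5 and 88.2 CPM in parental cells, 107, 85.8 and 72.5 in shHIF2a cells, 89.6, 99.6 and 94.8 in shJUNs cells and 51.8, 57.6 and 45.8 in shYAP/TAZ cells. TNFRSF10B (ENSG00000120889, chr8:23020133-23069031, minus strand), the TRAIL receptor DR5, was at 104, 73.4 and 65 CPM in parental cells, 87.8, 57.7 and 62 in shHIF2a cells, 58.8, 72.9 and 61.2 in shJUNs cells and 22.2, 17.2 and 44.1 in shYAP/TAZ cells. For both genes shYAP/TAZ held the lowest libraries and the other lines overlapped. Against parental cells BAX changed by a log2 of -0.95 ± 0.19, adjusted p = 0.000673 and TNFRSF10B by -1.51 ± 0.28, adjusted p = 0.000424, and against each knockdown line both were called too (adjusted p = 0.00518 and 0.00223 for BAX, 0.00268 and 0.00559 for TNFRSF10B). The other TRAIL receptor of the list, TNFRSF10A, ranged from 4.99 to 11.2 CPM and the death receptor FAS from 14.3 to 38.4 CPM, and neither was called in any comparison. In shYAP/TAZ against parental cells their log2 changes were 0.01 ± 0.45 and -0.01 ± 0.34.

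AEN (ENSG00000181026, chr15:88621337-88632281, plus strand), a nuclease that promotes apoptosis, was at 58.6, 47.2 and 32.2 CPM in parental cells, 58.8, 67.7 and 110.0 in shHIF2a cells, 50.1, 56.9 and 75.1 in shJUNs cells and 9.08, 16.2 and 25.3 in shYAP/TAZ cells. The shYAP/TAZ libraries were lowest, and all of shHIF2a lay above those of parental cells. AEN was lower in shYAP/TAZ than in parental cells (-1.40 ± 0.32, adjusted p = 0.00274), shHIF2a (-2.17 ± 0.32, adjusted p = 5.23e-05) and shJUNs (-1.80 ± 0.32, adjusted p = 0.000449). Between shHIF2a and parental cells AEN was not called, but limma-voom called it higher in shHIF2a (adjusted p = 0.0497), as did other settings. CYFIP2 (ENSG00000055163, chr5:157266079-157395595, plus strand), a subunit of the WAVE complex of actin assembly, was at 29.3, 30.6 and 26.6 CPM in parental cells, 30.1, 18.1 and 24.2 in shHIF2a cells, 26.2, 25.6 and 24.1 in shJUNs cells and 0, 4.46 and 5.3 in shYAP/TAZ cells. shYAP/TAZ was low, with 36 counts in its 3 libraries and none in the first, where 3 counts equal 1.36 CPM, and the other 9 libraries lay well above it. Its log2 change was -2.999 ± 0.45, adjusted p = 4.06e-05 against parental, -2.74 ± 0.46, adjusted p = 0.000174 against shHIF2a and -2.81 ± 0.45, adjusted p = 0.000141 against shJUNs.

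PHLDA3 (ENSG00000174307, chr1:201464278-201469237, minus strand), an inhibitor of AKT, was at 197, 133 and 95.3 CPM in parental cells, 109.9, 121 and 112 in shHIF2a cells, 122, 122 and 133 in shJUNs cells and 49.9, 37.3 and 41.9 in shYAP/TAZ cells. TRIAP1 (ENSG00000170855, chr12:120443964-120446384, minus strand), a small protein of the mitochondrial intermembrane space that limits apoptosis, was at 85.9, 59.9 and 75.5 CPM in parental cells, 69.3, 64.9 and 84.8 in shHIF2a cells, 117, 88.9 and 87.4 in shJUNs cells and 43.1, 31.5 and 42.9 in shYAP/TAZ cells. In both, shYAP/TAZ held the 3 lowest libraries. PHLDA3 changed by a log2 of -1.72 ± 0.21 against parental, -1.42 ± 0.21 against shHIF2a and -1.55 ± 0.21 against shJUNs, with a largest adjusted p of 5.09e-05. TRIAP1 changed by -0.91 ± 0.21, -0.90 ± 0.21 and -1.32 ± 0.20 in the same order, with a largest adjusted p of 0.00374. A gene on the other strand overlaps TRIAP1, and a noncoding gene on the same strand overlaps PHLDA3.

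BBC3 (ENSG00000105327, chr19:47220822-47232766, minus strand), the BH3-only protein PUMA, was at 71.5, 38.2 and 46.1 CPM in parental cells, 27.2, 19 and 22.1 in shHIF2a cells, 23.3, 16.8 and 13.6 in shJUNs cells and 11.3, 22.6 and 10.1 in shYAP/TAZ cells. Parental cells were highest, and the 3 knockdown lines overlapped. It was lower than in parental cells in shYAP/TAZ (-1.81 ± 0.33, adjusted p = 0.00032), shJUNs (-1.53 ± 0.32, adjusted p = 0.00173) and shHIF2a (-1.18 ± 0.32, adjusted p = 0.0121), and the last of these calls did not hold without parental replicate 1 or without shHIF2a replicate 2 (range 0.00147 to 0.092). PERP (ENSG00000112378, chr6:138088505-138107419, minus strand), a membrane protein of desmosomes, was at 152, 139 and 139 CPM in parental cells, 120.3, 104 and 76.4 in shHIF2a cells, 89.9, 113 and 101 in shJUNs cells and 105, 95.8 and 100.5 in shYAP/TAZ cells. Parental libraries were highest, and the other 3 lines overlapped at similar levels. The log2 change against parental cells was -0.51 ± 0.17, adjusted p = 0.0321 in shYAP/TAZ, -0.51 ± 0.17, adjusted p = 0.0411 in shHIF2a and -0.50 ± 0.17, adjusted p = 0.0412 in shJUNs. The adjusted p rose above 0.05 in all 3 without any single parental library, and over the alternatives it ranged from 0.0187 to 0.099, 0.0201 to 0.2 and 0.0159 to 0.168 respectively. In shYAP/TAZ the call was also lost without shYAP/TAZ replicates 2 or 3, in shHIF2a without shHIF2a replicates 2 or 3 or shJUNs replicate 3, and in shJUNs without any single shJUNs library, shHIF2a replicate 2 or shYAP/TAZ replicate 2.

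TP53I3 (ENSG00000115129, chr2:24077433-24085861, minus strand), an NADPH-dependent quinone oxidoreductase tied to oxidative stress, was higher in shYAP/TAZ. It was at 0.349, 3.65 and 3.39 CPM in parental cells, 9.28, 11.2 and 11.6 in shHIF2a cells, 6.88, 3.21 and 5.14 in shJUNs cells and 10.9, 15 and 15.2 in shYAP/TAZ cells. shYAP/TAZ and shHIF2a lay above parental cells in every library, and shYAP/TAZ also above shJUNs. The log2 change against parental cells was 2.42 ± 0.55, adjusted p = 0.0024 in shYAP/TAZ and 2.06 ± 0.55, adjusted p = 0.0117 in shHIF2a, and against shJUNs it was 1.42 ± 0.51, adjusted p = 0.0597, a difference called by DESeq2, by limma-voom, without parental replicate 1 and in a fit of the 2 groups only. The gene FAM228B overlaps TP53I3 on the other strand. TP53INP1, which promotes autophagy and cell death, ranged from 1.91 to 14.2 CPM and was called in no comparison. Its lowest library was one of shYAP/TAZ, whose log2 change was -1.56 ± 0.55, adjusted p = 0.0521 against shHIF2a and -1.51 ± 0.55, adjusted p = 0.0624 against shJUNs, both called by DESeq2 and in fits without shHIF2a replicate 3 or shYAP/TAZ replicate 1, among other settings.

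Of the 4 genes of DNA repair and nucleotide supply 3 were lower in shYAP/TAZ than in parental cells (12.3% of all genes), and RRM2B in shYAP/TAZ alone (3.06%). RRM2B (ENSG00000048392, chr8:102204502-102238961, minus strand), the p53-induced subunit of ribonucleotide reductase, was at 119, 64.1 and 89 CPM in parental cells, 67.8, 53 and 52.2 in shHIF2a cells, 87.9, 69.4 and 61.7 in shJUNs cells and 39.5, 35 and 25.1 in shYAP/TAZ cells. The shYAP/TAZ libraries were lowest, and the shHIF2a libraries stood at the lower end of the other 9. The log2 change was -1.46 ± 0.24, adjusted p = 9.71e-05 against parental, -1.15 ± 0.24, adjusted p = 0.00176 against shJUNs and -0.81 ± 0.24, adjusted p = 0.0204 against shHIF2a. The last call was lost without shHIF2a replicate 1 or shYAP/TAZ replicates 2 or 3 (range 0.00405 to 0.0938). RRM2B was not called lower in shHIF2a than in parental cells, but was by DESeq2 (adjusted p = 0.0393), among other settings.

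DDB2 (ENSG00000134574, chr11:47214465-47239217, plus strand), which recognises ultraviolet damage, was at 83.1, 47.5 and 43.5 CPM in parental cells, 32.5, 19.3 and 16.1 in shHIF2a cells, 37.7, 28.8 and 26.6 in shJUNs cells and 11.8, 13.7 and 17.4 in shYAP/TAZ cells. Parental cells were highest, and shYAP/TAZ overlapped shHIF2a but lay below shJUNs. DDB2 was lower than in parental cells in shYAP/TAZ (-2.00 ± 0.31, adjusted p = 5.75e-05), shHIF2a (-1.35 ± 0.30, adjusted p = 0.003) and shJUNs (-0.90 ± 0.29, adjusted p = 0.0331), and lower in shYAP/TAZ than in shJUNs (-1.10 ± 0.31, adjusted p = 0.0172). The shJUNs call was lost without parental replicate 1 or shJUNs replicates 2 or 3 (range 0.0139 to 0.25), and that between shYAP/TAZ and shJUNs without shJUNs replicate 1 or shYAP/TAZ replicates 1 or 2 (range 0.00298 to 0.0902). POLH (ENSG00000170734, chr6:43576185-43620523, plus strand), the polymerase that copies past ultraviolet damage, was at 55.5, 41 and 46.6 CPM in parental cells, 19.1, 32.1 and 28.7 in shHIF2a cells, 33.9, 35.3 and 33.1 in shJUNs cells and 18.2, 26.4 and 32.5 in shYAP/TAZ cells. Parental cells were highest, and shYAP/TAZ and shHIF2a overlapped. POLH was lower than in parental cells in shYAP/TAZ (-0.87 ± 0.26, adjusted p = 0.0155) and shHIF2a (-0.84 ± 0.26, adjusted p = 0.0255), calls lost without parental replicate 1 and without shYAP/TAZ replicate 1 or shHIF2a replicate 1, respectively (ranges 0.00678 to 0.0667 and 0.0102 to 0.127). XPC, a sensor of nucleotide excision repair, ranged from 19.3 to 44.3 CPM and was called in no comparison. Its log2 change in shYAP/TAZ against parental cells was -0.15 ± 0.30, adjusted p = 0.764.

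Of the 5 genes of redox balance, metabolism and growth signalling 4 were tested, and 3 were lower in shYAP/TAZ than in parental cells (12.3% of all genes). FDXR (ENSG00000161513, chr17:74862497-74873031, minus strand), the mitochondrial ferredoxin reductase, was at 49.6, 28.4 and 24.6 CPM in parental cells, 16.5, 20 and 17.2 in shHIF2a cells, 37.1, 35 and 32.2 in shJUNs cells and 5.9, 9.55 and 4.1 in shYAP/TAZ cells. Lowest were the shYAP/TAZ libraries, those of shHIF2a came next, and parental and shJUNs libraries overlapped above them. The log2 change in shYAP/TAZ was -2.39 ± 0.35, adjusted p = 2.24e-05 against parental, -1.47 ± 0.35, adjusted p = 0.00508 against shHIF2a and -2.42 ± 0.34, adjusted p = 3.17e-05 against shJUNs. FDXR was also called lower in shHIF2a than in parental cells (-0.93 ± 0.31, adjusted p = 0.0417), a call lost without parental replicate 1, any single library of shHIF2a or shJUNs, and with limma-voom (range 0.024 to 0.269). It was not called higher in shJUNs than in shHIF2a, but was by DESeq2 (adjusted p = 0.0345), among other settings.

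SESN1 (ENSG00000080546, chr6:108984309-109094846, minus strand) and SESN2 (ENSG00000130766, chr1:28259518-28282491, plus strand) encode sestrins, which restrain mTORC1. SESN1 was at 10.5, 12.1 and 15.3 CPM in parental cells, 23.2, 19.3 and 17.5 in shHIF2a cells, 13.5, 10.9 and 4.47 in shJUNs cells and 4.09, 6.37 and 4.58 in shYAP/TAZ cells. The shYAP/TAZ libraries lay below those of parental cells and shHIF2a and overlapped 1 of shJUNs. SESN1 was lower in shYAP/TAZ than in shHIF2a (-1.98 ± 0.43, adjusted p = 0.00218) and than in parental cells (-1.32 ± 0.43, adjusted p = 0.0267), the latter a call lost with limma-voom, in a fit of the 2 groups only and without parental replicates 2 or 3 or shYAP/TAZ replicates 1 or 3 (range 0.015 to 0.089). SESN2 was at 73.6, 36 and 44.1 CPM in parental cells, 29.6, 30.3 and 24.2 in shHIF2a cells, 43.9, 41.7 and 27.9 in shJUNs cells and 31.8, 19.4 and 20.7 in shYAP/TAZ cells. The first parental library was highest, the other 2 overlapped shJUNs, and all of shHIF2a and shYAP/TAZ lay below parental cells. SESN2 was lower than in parental cells in shYAP/TAZ (-1.11 ± 0.29, adjusted p = 0.0064) and shHIF2a (-0.86 ± 0.28, adjusted p = 0.0356). Both calls were lost without parental replicate 1, and that of shHIF2a also without any single shHIF2a library and with limma-voom (ranges 0.000733 to 0.0672 and 0.015 to 0.249).

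TIGAR (ENSG00000078237, chr12:4307763-4360028, plus strand), a fructose bisphosphatase that diverts glucose to the pentose phosphate pathway, was at 1.75, 0.843 and 2.83 CPM in parental cells, 15.1, 4.99 and 7.01 in shHIF2a cells, 6.66, 8.81 and 9.39 in shJUNs cells and 5.9, 0.955 and 5.3 in shYAP/TAZ cells. All libraries of shHIF2a and shJUNs lay above the parental ones, and shYAP/TAZ was spread over the levels of parental cells and shHIF2a. It was higher than in parental cells in shHIF2a (2.30 ± 0.67, adjusted p = 0.0192) and shJUNs (2.17 ± 0.67, adjusted p = 0.0245) and was not called in shYAP/TAZ (1.14 ± 0.69, adjusted p = 0.252). The shHIF2a call was lost without parental replicates 1 or 2 or shHIF2a replicate 1 (range 0.00602 to 0.13) and the shJUNs call without parental replicates 1 or 2 or shJUNs replicates 2 or 3 (range 0.00906 to 0.103). ACER2, an alkaline ceramidase, had 4, 3, 0 and 10 counts in parental cells, shHIF2a, shJUNs and shYAP/TAZ and was not tested.

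DRAM1 (ENSG00000136048, chr12:101877580-102012130, plus strand), a lysosomal membrane protein that promotes autophagy, was at 108, 101 and 113 CPM in parental cells, 97.1, 98.9 and 82.7 in shHIF2a cells, 101, 107 and 92.5 in shJUNs cells and 22.7, 18.1 and 35.2 in shYAP/TAZ cells. The 9 libraries of the other lines lay close together, well above those of shYAP/TAZ. The log2 change was -2.06 ± 0.21, adjusted p = 2.1e-07 against parental, -1.85 ± 0.21, adjusted p = 1.33e-06 against shHIF2a and -1.96 ± 0.21, adjusted p = 7.68e-07 against shJUNs. SPATA18 (ENSG00000163071, chr4:52051304-52097299, plus strand), which acts in the turnover of damaged mitochondria, was at 1.05, 0.562 and 0 CPM in parental cells, 1.16, 0.312 and 0 in shHIF2a cells, 9.32, 6.68 and 9.39 in shJUNs cells and 0, 0 and 0.241 in shYAP/TAZ cells. It was at the limit of detection outside shJUNs, with 5 counts in parental cells, 5 in shHIF2a and 1 in shYAP/TAZ against 109 in shJUNs. Its count in shJUNs, relative to the total counts of each group without TMM scaling, was 83.3 times that in shYAP/TAZ (95% exact binomial interval 14.6 to 3320, for counting error only), with an adjusted p of 0.00133. SPATA18 was higher in shJUNs than in parental cells (3.95 ± 0.97, adjusted p = 0.00593) and shHIF2a (3.95 ± 0.97, adjusted p = 0.0132), the only member higher in shJUNs alone (0.748% of all genes), and the call against shHIF2a was lost without shHIF2a replicates 2 or 3 or shJUNs replicates 1 or 3 (range 0.00115 to 0.076).

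The other 4 members were lower in shYAP/TAZ than in parental cells (12.3% of all genes), and 3 of them in shYAP/TAZ alone (3.06%). RPS27L (ENSG00000185088, chr15:63125872-63158021, minus strand), a ribosomal protein paralog that binds MDM2, was at 669, 598 and 620.4 CPM in parental cells, 808, 814 and 731 in shHIF2a cells, 588, 544 and 565 in shJUNs cells and 274, 231 and 230.4 in shYAP/TAZ cells. No lines overlapped: shHIF2a was highest, followed by parental cells, shJUNs and, far below, shYAP/TAZ. The log2 change in shYAP/TAZ was -1.36 ± 0.12, adjusted p = 1.86e-08 against parental, -1.68 ± 0.12, adjusted p = 1.32e-09 against shHIF2a and -1.21 ± 0.12, adjusted p = 1.81e-07 against shJUNs. RPS27L was lower in shJUNs than in shHIF2a (-0.47 ± 0.12, adjusted p = 0.013), a call lost without shHIF2a replicates 1 or 2 or shJUNs replicates 2 or 3 (range 0.000386 to 0.0858). Against parental cells RPS27L was not called in shHIF2a, but DESeq2 called it higher there (adjusted p = 0.0472), as did other settings. Reads of its paralog RPS27 could be split between the 2 genes, so its counts are uncertain.

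ZMAT3 (ENSG00000172667, chr3:178960121-179072215, minus strand), an RNA-binding regulator of splicing, was at 134, 100.4 and 73.5 CPM in parental cells, 133, 95.8 and 60.3 in shHIF2a cells, 89.9, 99.3 and 96.5 in shJUNs cells and 30, 27.4 and 19.3 in shYAP/TAZ cells. NINJ1 (ENSG00000131669, chr9:93121496-93134251, minus strand), which ruptures the plasma membrane of dying cells, was at 61.4, 66.6 and 56.5 CPM in parental cells, 69.6, 67.4 and 63.1 in shHIF2a cells, 83.4, 74.8 and 82.7 in shJUNs cells and 30, 30.6 and 32.5 in shYAP/TAZ cells. Both had all shYAP/TAZ libraries below all others, and for NINJ1 the shJUNs libraries were highest. ZMAT3 changed by a log2 of -2.02 ± 0.27, adjusted p = 8.33e-06 against parental, -1.93 ± 0.27, adjusted p = 2.13e-05 against shHIF2a and -1.92 ± 0.27, adjusted p = 2.64e-05 against shJUNs. NINJ1 changed by -0.98 ± 0.18, -1.10 ± 0.18 and -1.37 ± 0.18 in that order, with a largest adjusted p of 0.00038. FBXO22 (ENSG00000167196, chr15:75903876-75942511, plus strand), a ubiquitin ligase subunit, was at 56.2, 47.8 and 44.9 CPM in parental cells, 32.8, 54 and 52.2 in shHIF2a cells, 27.7, 44.6 and 37.3 in shJUNs cells and 23.6, 18.8 and 37.4 in shYAP/TAZ cells. All libraries of shYAP/TAZ and shJUNs lay below those of parental cells, and shYAP/TAZ overlapped shJUNs and shHIF2a. It was called lower in shYAP/TAZ against parental cells (-0.88 ± 0.27, adjusted p = 0.02) and shHIF2a (-0.78 ± 0.27, adjusted p = 0.0493). The first call was lost without parental replicate 1 or shYAP/TAZ replicates 1 or 2 (range 0.003 to 0.113) and the second in 14 of 20 alternatives, among them every omission of 1 library save shHIF2a replicate 1 and shYAP/TAZ replicate 3 (range 0.0076 to 0.223). By the gene spans in the deposited table, which can differ from those of RefSeq, other genes also overlap TNFRSF10B (RHOBTB2), CYFIP2 (ADAM19), POLH (GTPBP2), RPS27L (LACTB), FBXO22 (NRG4), FAS (STAMBPL1 and ACTA2), TP53INP1 (NDUFAF6) and XPC (XPC-AS1), so their counts are uncertain too.

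**Figure D3:**
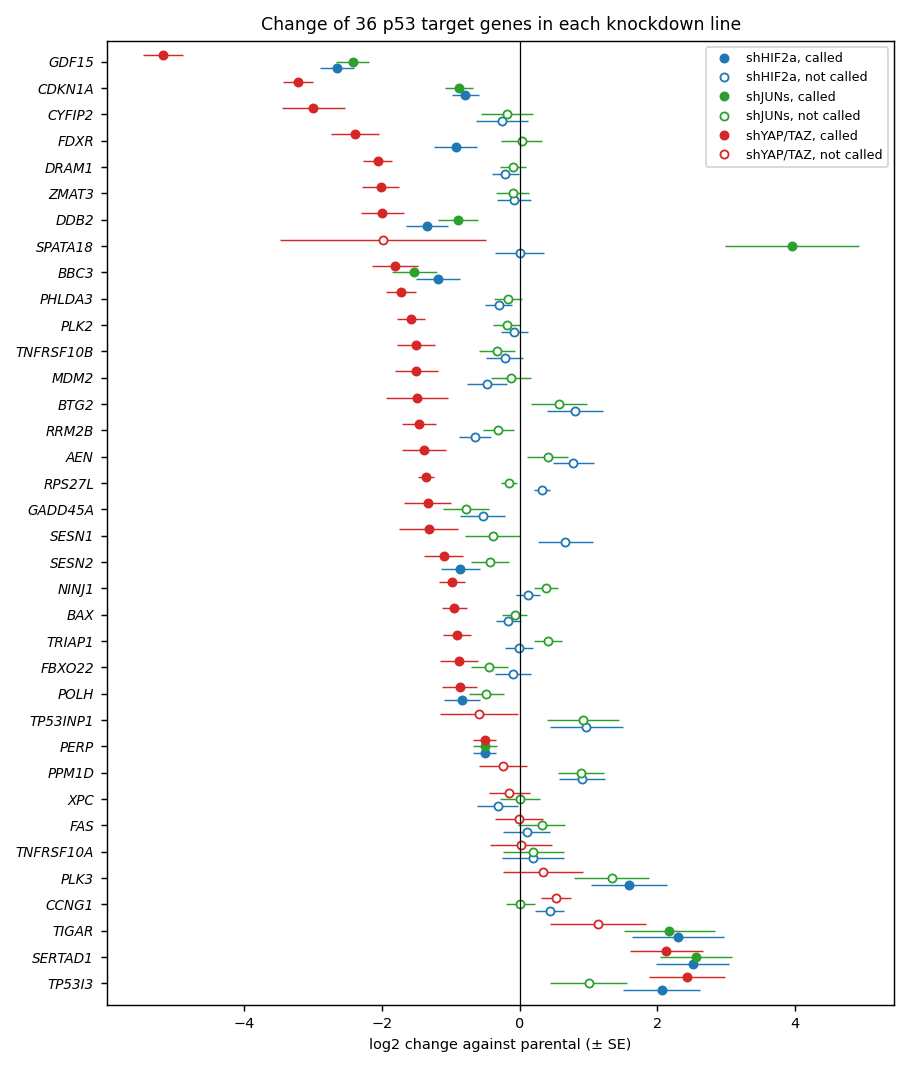
Log2 change of the 36 tested p53 target genes (y axis) against parental cells (x axis; points are estimates, lines ± SE) in shHIF2a (blue), shJUNs (green) and shYAP/TAZ (red), in the order of the shYAP/TAZ change. Filled points were called at an adjusted p under 0.05: 25 lower and 2 higher in shYAP/TAZ, 8 and 4 in shHIF2a, and 5 and 3 in shJUNs.

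Against parental cells, then, the 8 members lower in shHIF2a were CDKN1A, GDF15, BBC3, DDB2, PERP, POLH, SESN2 and FDXR, and the 5 lower in shJUNs were the first 5 of these. The same 5 made up the members higher in parental cells alone (2.85% of all genes). All 8 were lower in shYAP/TAZ too, and the comparisons share the parental libraries. Parental replicate 1 was high for many members: their mean level, as log2(CPM + 1) centred on each gene's mean over the 12 libraries, was 0.48 there and 0.12 and 0.13 in the other parental libraries. Without it, 2 members were called lower in shHIF2a, 3 lower in shJUNs, and 1 was higher in parental cells alone, a count that was 3 without shHIF2a replicate 2 or shJUNs replicates 2 or 3. The corresponding mean lay between 0.18 and 0.36 in shHIF2a, between 0.30 and 0.37 in shJUNs and at -0.96, -0.83 and -0.66 in the shYAP/TAZ libraries. The third shYAP/TAZ library was the highest of the 3 for 17 of the 36 members and for 9 of the 17 lower in shYAP/TAZ alone. In the direct test of shYAP/TAZ against the mean of the other 3 groups, 23 members were lower and 1 higher, TP53I3 (1.40 ± 0.39, adjusted p = 0.012; lost without shYAP/TAZ replicates 2 or 3, range 0.00255 to 0.0619), where 9.89% of all genes were lower and 12.2% higher.

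**Figure D4:**
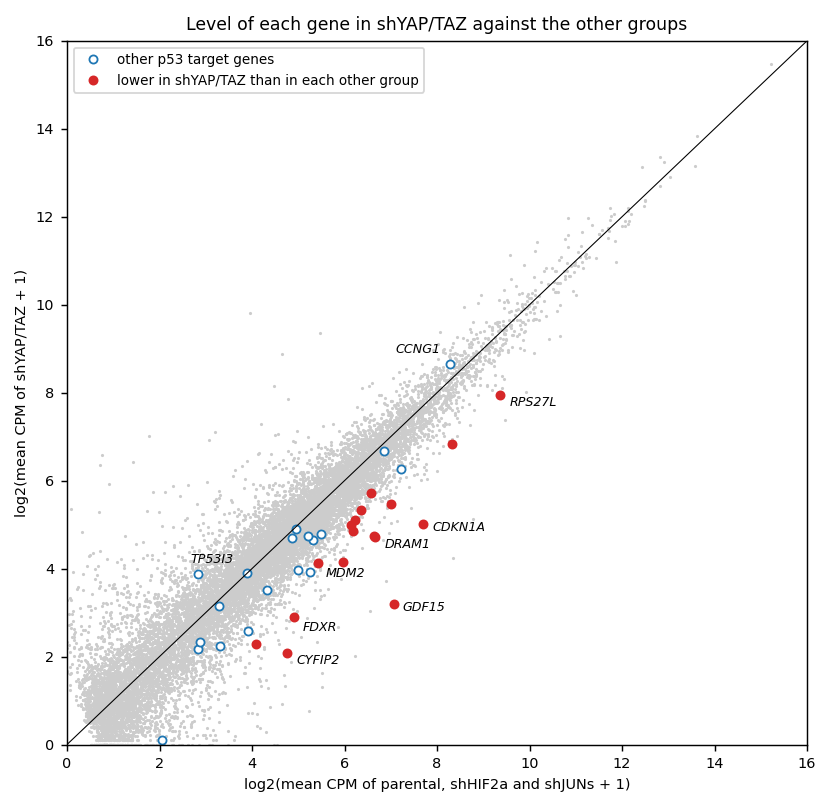
Level of each gene with over 1 CPM in at least 3 libraries, as log2(mean CPM + 1), in shYAP/TAZ (y axis) and over the other 3 groups (x axis); the line marks equality. The 17 p53 target genes lower in shYAP/TAZ alone (red) lie below the line, and the other members (open circles) lie on both sides of it.

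The amount and activity of the p53 protein were not analysed here. Of a list of 26 genes on the regulation of p53, 23 were tested. In shYAP/TAZ against parental cells 3 were lower and 2 higher, where 12.3% and 13% of all genes tested were, with a median log2 change of -0.05. None of the 23 was lower or higher in shYAP/TAZ alone, where 3.06% and 2.77% of all genes were. MDM4, the partner of MDM2, which was named after its values were seen, was at 17.3, 2.55 and 7.71 CPM in shYAP/TAZ against 27.2, 16.6 and 12.7 in parental cells and was not called (-1.08 ± 0.53, adjusted p = 0.148).

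The 4 genes of that list with the smallest p among the groups were TP53BP2, TOPORS, RPL5 and HIPK2. TP53BP2, which encodes ASPP2, a binding partner that steers p53 to genes of apoptosis, was at 82, 89.1 and 94.7 CPM in parental cells, 191, 127 and 156 in shHIF2a cells, 79.4, 69.2 and 73.1 in shJUNs cells and 58.1, 47.8 and 53.7 in shYAP/TAZ cells. No lines overlapped: shHIF2a was highest, followed by parental cells, shJUNs and shYAP/TAZ. Its log2 change was -0.74 ± 0.18, adjusted p = 0.00391 in shYAP/TAZ and 0.83 ± 0.17, adjusted p = 0.00182 in shHIF2a against parental cells. TOPORS, a ubiquitin and SUMO ligase that binds p53, was higher in shYAP/TAZ than in parental cells (1.51 ± 0.25, adjusted p = 0.000108), with 51.8, 62.7 and 54.5 CPM against 19.9, 21.1 and 18.4. TOPORS was also called higher in shHIF2a than in parental cells. That call was lost without parental replicates 1 or 3 or shHIF2a replicate 1 (range 0.0123 to 0.0911). Between shYAP/TAZ and shHIF2a TOPORS was not called, but DESeq2 called it higher in shYAP/TAZ (adjusted p = 0.0369), as did other settings. HIPK2, a kinase of p53, was called higher in shYAP/TAZ (0.51 ± 0.18, adjusted p = 0.044) with overlapping libraries, and the call was lost with limma-voom, in a fit of the 2 groups only and without parental replicates 1, 2 or 3, shHIF2a replicate 2, shJUNs replicates 1, 2 or 3 or shYAP/TAZ replicates 1 or 2 (range 0.00125 to 0.329). RPL5, a ribosomal protein that binds MDM2, was lower than in parental cells in shYAP/TAZ (-0.40 ± 0.09, adjusted p = 0.00238) and shJUNs (-0.45 ± 0.09, adjusted p = 0.00125).

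Another list held 40 genes known as p53 targets that are not members. Of the 37 tested, 9 were lower and 4 higher in shYAP/TAZ than in parental cells (12.3% and 13% of all genes), with a median log2 change of -0.02 against 0.02 over all genes. In shYAP/TAZ alone 4 were lower (3.06% of all genes): EDA2R, TRIM22, IER5 and EPHA2, of which the last 2 were named after their values were seen. EDA2R, a receptor of the tumour necrosis factor family, was at 29.3, 18.3 and 15.3 CPM in parental cells, 12.2, 12.5 and 15.1 in shHIF2a cells, 18.2, 13.4 and 11.8 in shJUNs cells and 0.454, 0.318 and 0.241 in shYAP/TAZ cells. It had 203 counts in parental cells and 3 in shYAP/TAZ, and an adjusted p of 9.72e-08. Relative to the total counts of each group without TMM scaling, that was a ratio of 64.5 (95% exact binomial interval 21.7 to 315, for counting error only). TRIM22, an antiviral ubiquitin ligase, was at 2.27, 7 and 4.1 CPM in shYAP/TAZ and 40.1, 24.2 and 26.6 in parental cells (-2.71 ± 0.35, adjusted p = 5.14e-06). IER5 changed by a log2 of -1.60 ± 0.28, adjusted p = 0.00022 and EPHA2 by -0.87 ± 0.20, adjusted p = 0.00285 against parental cells. The calls of IER5 against shHIF2a and shJUNs were lost without shYAP/TAZ replicate 2, and that of EPHA2 against shHIF2a without shHIF2a replicate 2 or shYAP/TAZ replicates 1 or 2 and in a fit of the 2 groups only (largest adjusted p = 0.108).

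KITLG, the ligand of the receptor KIT, was higher than in parental cells in shYAP/TAZ (1.55 ± 0.26, adjusted p = 0.0001), shHIF2a (1.32 ± 0.26, adjusted p = 0.000912) and shJUNs (2.52 ± 0.25, adjusted p = 2.49e-07). TRAF4, an adaptor of receptor signalling, was higher than in parental cells in shHIF2a (0.77 ± 0.19, adjusted p = 0.00603) and was not called in shYAP/TAZ (-0.36 ± 0.19, adjusted p = 0.181). PMAIP1, the BH3-only protein NOXA, was at 81.3, 63.8 and 49.7 CPM in parental cells, 27.5, 35.6 and 51.8 in shHIF2a cells, 45, 47.3 and 55.4 in shJUNs cells and 12.7, 24.5 and 49.6 in shYAP/TAZ cells. The shYAP/TAZ libraries spread widely and the third stood with the other lines. PMAIP1 was lower in shYAP/TAZ than in parental cells (-1.12 ± 0.34, adjusted p = 0.0206), a call lost without parental replicates 1 or 2 or shYAP/TAZ replicates 1 or 2 (range 0.000111 to 0.094), and was not called against shHIF2a (-0.36 ± 0.35) or shJUNs (-0.72 ± 0.34). Without shYAP/TAZ replicate 3 both differences were called, at a log2 change of -1.01 (adjusted p = 0.0268) and -1.38 (adjusted p = 0.00333), and with no filter that against shJUNs (adjusted p = 0.0346).

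**Figure D5:**
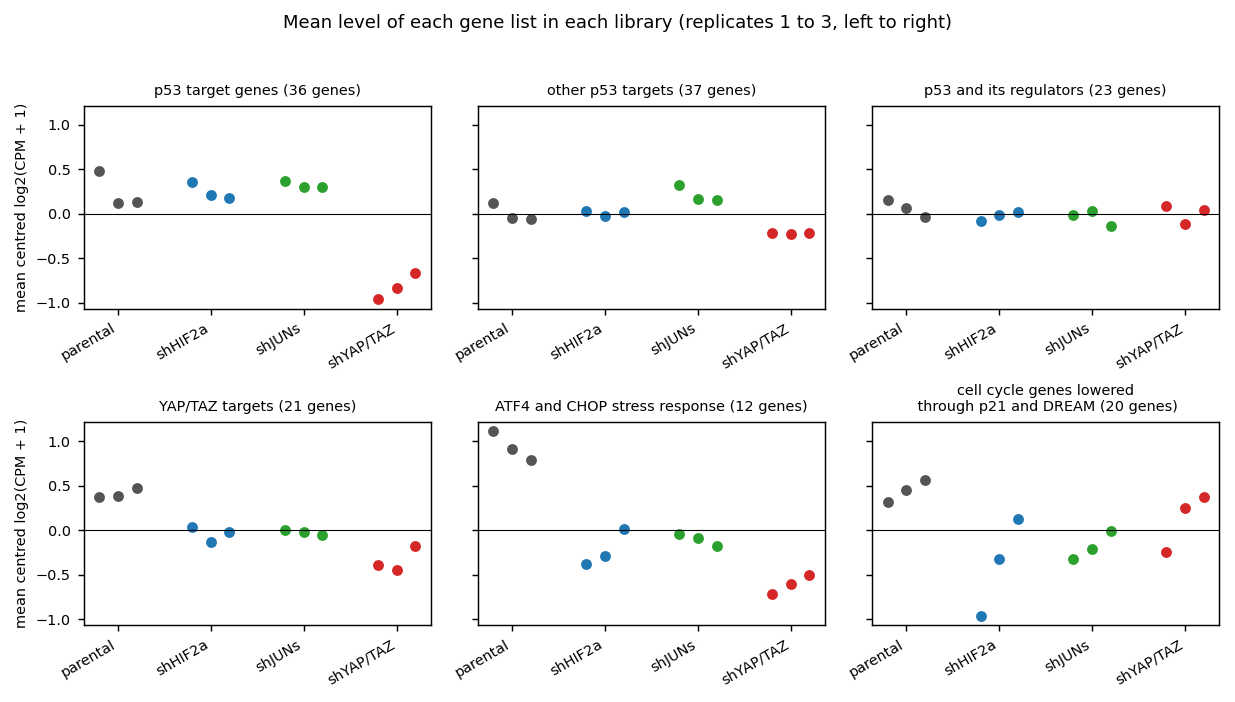
Mean level of 6 gene lists in each library (y axis, mean over genes of log2(CPM + 1) centred on each gene's mean over the 12 libraries; points are replicates 1 to 3 of each group). The p53 target genes lie at -0.96 to -0.66 in shYAP/TAZ and at 0.12 to 0.48 elsewhere, while the other p53 targets lie at -0.23 to -0.21 in shYAP/TAZ and the genes of ATF4 and CHOP are highest in parental cells.

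Of 22 known YAP/TAZ targets 21 were tested, and 12 were lower and 3 higher in shYAP/TAZ than in parental cells (12.3% and 13% of all genes), with a median log2 change of -0.86. Against parental cells 8 of them were lower and 3 higher in shHIF2a (8.8% and 9.84% of all genes), and 7 lower and 1 higher in shJUNs (8.93% and 10.3%). AMOTL2, a junction protein that restrains YAP, was at 321, 256 and 259 CPM in parental cells and 69, 56 and 46.3 in shYAP/TAZ (-2.30 ± 0.20, adjusted p = 1.67e-08). LATS2, a kinase of YAP that also binds MDM2, changed by a log2 of -2.17 ± 0.25, adjusted p = 9.86e-07. IGFBP3, which is a p53 target as well, changed by -2.01 ± 0.20, adjusted p = 1.21e-06. AMOTL2, LATS2 and IGFBP3 were also called lower than in parental cells in both shHIF2a and shJUNs. The LATS2 call in shHIF2a was lost without parental replicate 1 (adjusted p = 0.0671). IGFBP3 was not called between shYAP/TAZ and shHIF2a. CRIM1 was not called in shYAP/TAZ against parental cells (0.13 ± 0.14, adjusted p = 0.541) but was higher than in parental cells in shHIF2a (1.05 ± 0.14, adjusted p = 1.36e-05) and shJUNs (1.23 ± 0.14, adjusted p = 1.4e-06).

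GDF15 and SESN2 answer to ATF4 and CHOP as well as to p53, and most tested genes of that list were lower than in parental cells in each knockdown line. Of its 15 genes 12 were tested. In shYAP/TAZ 11 were lower than in parental cells (median log2 change -1.53), in shHIF2a 9 (-1.20) and in shJUNs 9 (-1.08), with none higher, where 12.3%, 8.8% and 8.93% of all genes were lower, and 8 were higher in parental cells alone (2.85% of all genes). DDIT3, which encodes CHOP, was at 172, 144 and 105 CPM in parental cells, 22.6, 41.2 and 41.3 in shHIF2a cells, 28.6, 32.8 and 33.7 in shJUNs cells and 23.2, 31.8 and 31.3 in shYAP/TAZ cells. Parental cells were highest and the knockdown lines overlapped. Its log2 change was -2.28 ± 0.24, adjusted p = 4.23e-07 in shYAP/TAZ, -2.01 ± 0.24, adjusted p = 4.08e-06 in shHIF2a and -2.15 ± 0.24, adjusted p = 1.18e-06 in shJUNs.

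ATF4 was at 329.8, 292 and 281 CPM in parental cells, 172, 181 and 236 in shHIF2a cells, 276, 276 and 257 in shJUNs cells and 103, 125 and 127 in shYAP/TAZ cells. It was lowest in shYAP/TAZ without overlap. ATF4 was 1 of 3 genes of the list lower in shYAP/TAZ alone, with VLDLR, a lipoprotein receptor, and SLC3A2, a subunit of amino acid transporters (ATF4 and VLDLR were named after their values were seen). The log2 change of ATF4 in shYAP/TAZ was -1.34 ± 0.15, adjusted p = 8.27e-07 against parental, -0.73 ± 0.15, adjusted p = 0.00157 against shHIF2a and -1.19 ± 0.15, adjusted p = 7.65e-06 against shJUNs. ATF4 was also called lower in shHIF2a than in parental cells, in every alternative (range 0.000617 to 0.0387). SLC3A2 was called lower than in parental cells in shHIF2a and shJUNs too, the latter call lost without shJUNs replicate 3 (adjusted p = 0.0523). TRIB3, a pseudokinase induced by CHOP, and PSAT1, of serine synthesis, were lower than in parental cells in shYAP/TAZ (-2.19 ± 0.21 and -1.58 ± 0.18, adjusted p = 1.11e-07 and 1.12e-06), shHIF2a (-2.85 ± 0.22 and -2.12 ± 0.19, adjusted p = 9.2e-09 and 5.04e-08) and shJUNs (-2.77 ± 0.22 and -1.17 ± 0.18, adjusted p = 8.79e-09 and 7.32e-05). The part of ATF4 and CHOP in the levels of GDF15 and SESN2 was not tested.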

How the data were processed

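RNA of 12 libraries of 786-O cells, 3 of each of 4 lines, was prepared with a BRB-seq kit, per the labels' protocols. Reads were trimmed with Trim Galore and aligned with STAR to hg38, per the submitters' processing notes. The authors deposited raw counts per gene, with gene coordinates, in 1 table. Not given in the sources used here are the counter, its use of strand, the annotation, the handling of molecular identifiers and the versions.

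Genes were named by Ensembl ID, which named 62624 of 62702. 3 lines of the table, over which the values of 1 gene are broken, were left out. Genes were filtered by edgeR's filterByExpr by group, scaled by TMM and tested with edgeR 4.0.16 (R 4.3.3), with a quasi-likelihood fit (robust) of 1 mean per group over all 12 libraries and Benjamini-Hochberg adjustment over 12301 genes. A gene was called at an adjusted p under 0.05. A standard error (SE) is the log2 change divided by the square root of F. The spread between libraries came to a common dispersion of 0.0628, or 25.1% as a coefficient of variation. The script was tested on simulated data. Alternatives were DESeq2's size factors, library size only, the DESeq2 1.42.0 test, limma-voom (limma 3.58.1), no filter, a filter at 10 CPM in 3 libraries, a replicate block, a fit of the 2 groups only and each library left out in turn. Libraries of a group differed by more than sampling noise, and none appeared to be a copy of another.

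The members and lists were chosen with earlier results of these data known. Named are all members, those called in 1 of the 6 comparisons with every library, the shRNA targets, PMAIP1, and of each other list at most 4 genes with the smallest p among the groups, beside a few genes said in the text to be named after their values were seen. Promoter windows came from RefSeq (GRCh38.p14). Intervals cover counting error only. The values of some genes on the lists are not reported here.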

Additional observations from a re-analysis of the deposited data

How the results depend on the processing

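Of 89 called member results in the 6 comparisons between groups, 63 were called in every alternative run, and none reversed its direction in any. The count lower in shYAP/TAZ alone ran from 16 to 18 over the settings that kept all libraries and from 14 to 17 when 1 library was left out. With the filter at 10 CPM in 3 libraries, which tests fewer genes, 2 members were higher in shHIF2a than in parental cells and 1 in shJUNs, and 0 were higher in shJUNs than in shHIF2a or in shJUNs alone. With the DESeq2 test, limma-voom, no filter, the replicate block or the 2 groups only, 1 member was higher in shYAP/TAZ than in shJUNs and 2 in shJUNs than in shHIF2a. With limma-voom or the 2 groups only, 2 were lower in shJUNs than in shHIF2a. With no filter or the replicate block, 2 were higher in shYAP/TAZ than in the mean of the others. With DESeq2, limma-voom or the replicate block, 1 was higher in shHIF2a alone. The cause was not tested.

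With 1 library left out, the counts lower and higher against parental cells ran from 19 to 25 and 2 to 3 in shYAP/TAZ, 2 to 10 and 2 to 7 in shHIF2a, and 3 to 6 and 2 to 4 in shJUNs. Those of shYAP/TAZ against shHIF2a ran from 17 to 20 lower with 0 higher, against shJUNs from 18 to 21 and 0 to 1, and against the mean of the others from 20 to 26 and 0 to 2. Those of shJUNs against shHIF2a ran from 0 to 1 lower and 0 to 2 higher. Counts higher in 1 group alone ran from 1 to 5 in parental cells and 0 to 1 in shHIF2a and shJUNs, and the members differing among the groups from 25 to 31.

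The labels give the libraries of each group replicate numbers. Deviations from the group means correlated at -0.01 to 0.24 between libraries of the same number and at -0.21 to 0.04 between others, and 8 of 12 libraries correlated best with one of their own number. Libraries of the same number thus shared some of their deviations, though weakly. The fit of 1 mean per group had no term for the number, and the replicate block was run as an alternative. With the replicate block 18 members were lower in shYAP/TAZ alone, GADD45A being added. The block also called TP53INP1 lower in shYAP/TAZ than in shHIF2a and shJUNs (adjusted p = 0.0437 and 0.0419), and CCNG1 higher in shYAP/TAZ than in parental cells and shJUNs (0.00987 and 0.0254) and in shHIF2a than in parental cells (0.027). The levels of ACER2 in every line, SPATA18 outside shJUNs and EDA2R in shYAP/TAZ lay near the 0.67 to 1.36 CPM that 3 counts give, which limits the differences that can be detected among such levels.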

Other observations

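The cell cycle genes that p53 is known to lower, through p21 and the DREAM complex, were followed as a list. Of 20 tested, 4 were lower in shYAP/TAZ than in parental cells, 10 in shHIF2a and 9 in shJUNs, with none higher, where 12.3%, 8.8% and 8.93% of all genes tested were lower. The comparisons share the parental libraries. The genes' median log2 changes were -0.34, -0.84 and -0.68. None was lower or higher in shYAP/TAZ alone, where 3.06% and 2.77% of all genes were. CENPF, a kinetochore protein, was at 176, 286 and 289 CPM in parental cells, 81.7, 121 and 135 in shHIF2a cells, 104, 167 and 119 in shJUNs cells and 268, 322 and 268 in shYAP/TAZ cells. shYAP/TAZ lay within and above the range of parental cells, and all libraries of shHIF2a and shJUNs lay below both. Its log2 change in shYAP/TAZ was 1.35 ± 0.21, adjusted p = 0.000123 against shHIF2a and 1.14 ± 0.21, adjusted p = 0.0007 against shJUNs. TOP2A, topoisomerase II alpha, was lower than in parental cells in shYAP/TAZ (-0.58 ± 0.16, adjusted p = 0.00959), shHIF2a (-1.10 ± 0.16, adjusted p = 5.54e-05) and shJUNs (-0.70 ± 0.16, adjusted p = 0.00343). CCNB2, cyclin B2, was lower in shHIF2a (-1.23 ± 0.21, adjusted p = 0.000274), shJUNs (-1.12 ± 0.21, adjusted p = 0.000545) and shYAP/TAZ (-0.64 ± 0.21, adjusted p = 0.0243), the last lost without parental replicates 2 or 3 or shYAP/TAZ replicates 1 or 2 (range 0.00296 to 0.103). KIF23, a motor protein of cytokinesis, was lower in shJUNs alone (-0.97 ± 0.19, adjusted p = 0.000763 against parental cells).

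Among 15 tested genes of G1 control, CDKN1C and CDKN2C, which like CDKN1A encode CDK inhibitors, were higher in shYAP/TAZ. In shYAP/TAZ 5 of the 15 were lower and 3 higher than in parental cells (12.3% and 13% of all genes), and in shYAP/TAZ alone 1 was lower and 2 higher (3.06% and 2.77%). CDKN1C, which encodes p57, was at 22.7, 7.59 and 11 CPM in parental cells, 4.64, 4.99 and 2.8 in shHIF2a cells, 6.43, 5.07 and 6.93 in shJUNs cells and 67.2, 51.6 and 18.1 in shYAP/TAZ cells. All but the third shYAP/TAZ library lay above every library of the other lines. Its log2 change in shYAP/TAZ was 1.73 ± 0.43, adjusted p = 0.00503 against parental, 3.42 ± 0.48, adjusted p = 2.73e-05 against shHIF2a and 2.87 ± 0.46, adjusted p = 0.000125 against shJUNs. CDKN2C, which encodes p18, was at 83.4, 111 and 165 CPM in parental cells, 114, 124 and 152 in shHIF2a cells, 103, 77.2 and 110.2 in shJUNs cells and 282, 224 and 194 in shYAP/TAZ cells, with shYAP/TAZ above every other library (0.96 ± 0.21, adjusted p = 0.002 against parental cells). RB1, which CDKs inactivate and which was named after its values were seen, was lower in shYAP/TAZ alone (-0.85 ± 0.24, adjusted p = 0.0105 against parental cells). Its call against shHIF2a was lost without shHIF2a replicate 3 (range 0.00153 to 0.0841) and that against shJUNs without shJUNs replicate 3 or shYAP/TAZ replicates 1 or 2 (range 0.00441 to 0.109). CCND1, cyclin D1, was at 967, 654 and 547 CPM in parental cells, 15.9, 13.1 and 34.3 in shHIF2a cells, 84.3, 82.8 and 95 in shJUNs cells and 106, 88.5 and 135 in shYAP/TAZ cells. Parental cells were highest and shHIF2a lowest, without overlap. Against parental cells its log2 change was -5.11 ± 0.32, adjusted p = 1.86e-08 in shHIF2a, -3.05 ± 0.28, adjusted p = 1.18e-06 in shJUNs and -2.71 ± 0.28, adjusted p = 2.2e-06 in shYAP/TAZ. RBL2, a pocket protein of the DREAM complex, was lower than in parental cells in shYAP/TAZ (-1.35 ± 0.28, adjusted p = 0.00109) and shHIF2a (-1.68 ± 0.28, adjusted p = 0.000249) and was not called in shJUNs (-0.68 ± 0.27, adjusted p = 0.0818).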
